A study of Homo sapiens and Mus musculus with 16 samples.

Results

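The SOX and FOX transcription factors were taken here as all genes whose symbol is SOX and a number, or FOX with a letter from A to S and a number, leaving out SOX1, SOX2, SOX17, FOXA1 and FOXA2. This gave 52 of the 22286 genes in the human table and 35 of the 15881 genes in the mouse table. A member was counted in a cell type when it averaged at least 1 CPM (a read count scaled to the library total) over that cell type's 4 libraries, which left 33 members in HEK293T cells, 31 in liver bud progenitors, 30 in the neurons and 26 in mouse embryonic stem cells (mESCs). Members were thus chosen by name and level, and the P-body to cytoplasm ratio was not used. Over both tables the members had 52 different symbols, of which 46 were counted in at least 1 cell type and 20 in all 4. FOXC2, FOXD2, FOXI1, FOXL1, FOXN1 and SOX30 were counted in none.

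SOX proteins bind and bend DNA through an HMG box, and FOX proteins bind DNA through a winged-helix forkhead domain. Both families hold many regulators of lineage choice, and paralogues of a subfamily share most of their DNA-binding domain while differing in where they are expressed and in whether they activate or repress transcription. P-bodies are cytoplasmic condensates of mRNA with proteins of decapping and translational repression, among them LSM14A and DDX6, and mRNAs found in them are held back from translation. A P-body to cytoplasm ratio therefore sets a factor's mRNA in sorted P-bodies against that of the cytoplasm fraction. It does not measure how much of the protein is made.

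The study sorted GFP-marked P-bodies from lysed cells and sequenced their RNA beside that of the cytoplasm, asking which mRNAs are held in P-bodies in different cell types. Per the study's methods, the cytoplasm fraction was a resuspended pellet of the lysate after nuclei were removed, and P-bodies were sorted from it. This fraction was taken before sorting, so it still held P-bodies, and the supernatant was not part of it. All lines carried an LSM14A-GFP fusion, and each cell type came from a single such line, with 2 P-body and 2 cytoplasm libraries. The groups were KH2 mESCs grown in serum-LIF, HEK293T cells of human kidney origin, and day 20 neurons and liver bud progenitors that were both derived from UCLA4 human embryonic stem cells. The HEK293T and mESC libraries were made from total RNA with random primers and the liver bud and neuron libraries from polyA RNA, so cell type and library method cannot be told apart when HEK293T is set beside the UCLA4-derived cells.

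The 16 libraries held 6368953 to 17972284 counts. Labelled identities were checked on marker lists. All 10 neuron markers reached 1 CPM in neuron cytoplasm (summed level 13660 to 13784 CPM, against 254 to 258 CPM in liver bud cytoplasm), and all 13 liver bud markers did so in liver bud progenitors (1248 to 1256 CPM). The liver bud list summed to 63.8 to 72.3 CPM in neuron and 133 to 139 CPM in HEK293T cytoplasm. In mESC cytoplasm it summed to 1184 to 1207 CPM, with 7 markers at 1 CPM or more. Its sum therefore does not set liver bud progenitors apart from mESCs. The liver bud cytoplasm also held 10 of 11 pluripotency markers at 1522 to 1539 CPM in sum, with ESRRB at no more than 3 counts, and these summed to 2915 to 2971 CPM in its P-bodies. All 6 cycling-cell markers were present in neurons, at 1325 to 1385 CPM in the cytoplasm and 2776 to 2955 CPM in P-bodies. In bulk fractions, transcripts of other cells in the culture and transcripts kept in the same cells cannot be told apart. The part that either plays in the ratios below was not tested. The 2 neuron P-body libraries differed more from each other than any other pair (chi-square per gene 28.1, against 2.21 to 7.14 in the other pairs), and neuron ratios carry wider errors.

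Ratios are given as log2 of P-body over cytoplasm with the standard error (SE) of the edgeR quasi-likelihood fit over all genes of the table. A member is called enriched or depleted at a Benjamini-Hochberg adjusted p under 0.05 over all genes tested. CPM values are scaled by TMM within each comparison and are given for replicate 1 and then replicate 2 of a fraction. The labels do not say whether replicates were separate cultures, so the p-values measure the spread between these libraries.

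SOX and FOX mRNAs were found on both sides in every cell type. In HEK293T, 11 of 33 counted members were enriched and 7 depleted, where 32.0% and 38.0% of all 12836 genes of at least 1 CPM were called in those directions. In liver bud progenitors, 6 of 31 were enriched and 10 depleted, against 32.3% and 24.6% of 14455 genes. In neurons, 6 of 30 were enriched and 7 depleted, against 19.9% and 21.1% of 14762 genes. In mESCs, 9 of 26 were enriched and 5 depleted, against 33.8% and 20.2% of 12110 genes. As shares of counted members these came to 33.3% and 21.2%, 19.4% and 32.3%, 20.0% and 23.3%, and 34.6% and 19.2%, with the cell types in the same order. The median log2 ratio of the members was 0.02, -0.30, -0.10 and 0.12 in the same order, beside -0.13, 0.05, -0.12 and 0.04 for all genes of at least 1 CPM. The neuron count of depleted members was 2 without cytoplasm replicate 1, and the mESC count was 3 without cytoplasm replicate 1 or without P-body replicate 1. Scaling by library size alone shifted the all-gene median by -0.13 (HEK293T), -0.19 (liver bud), 0.16 (neurons) and -0.40 (mESCs), and with it the HEK293T count of depleted members became 11 and the mESC split 5 enriched and 12 depleted. DESeq2 and a fit over all human libraries each gave 6 depleted members in liver bud progenitors.

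Both families had members on either side. Of the SOX members counted, 3 of 9 were enriched and 2 depleted in HEK293T, 2 and 3 of 12 in liver bud progenitors, 2 and 3 of 11 in neurons, and 3 and 2 of 8 in mESCs. Of the FOX members, 8 and 5 of 24, 4 and 7 of 19, 4 and 4 of 19, and 6 and 3 of 18 were enriched and depleted, in the same order and to be read beside the shares of all genes just given. FOXJ3, FOXN2 and FOXP1 were enriched in all 4 cell types, although the liver bud call of FOXJ3 was lost under most other settings, SOX12, SOX13 and FOXP4 were depleted in all 4, and each of these had a close relative that was not called the same way throughout. The share of all genes called the same way in all 4 was not counted.

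**Figure D1:**
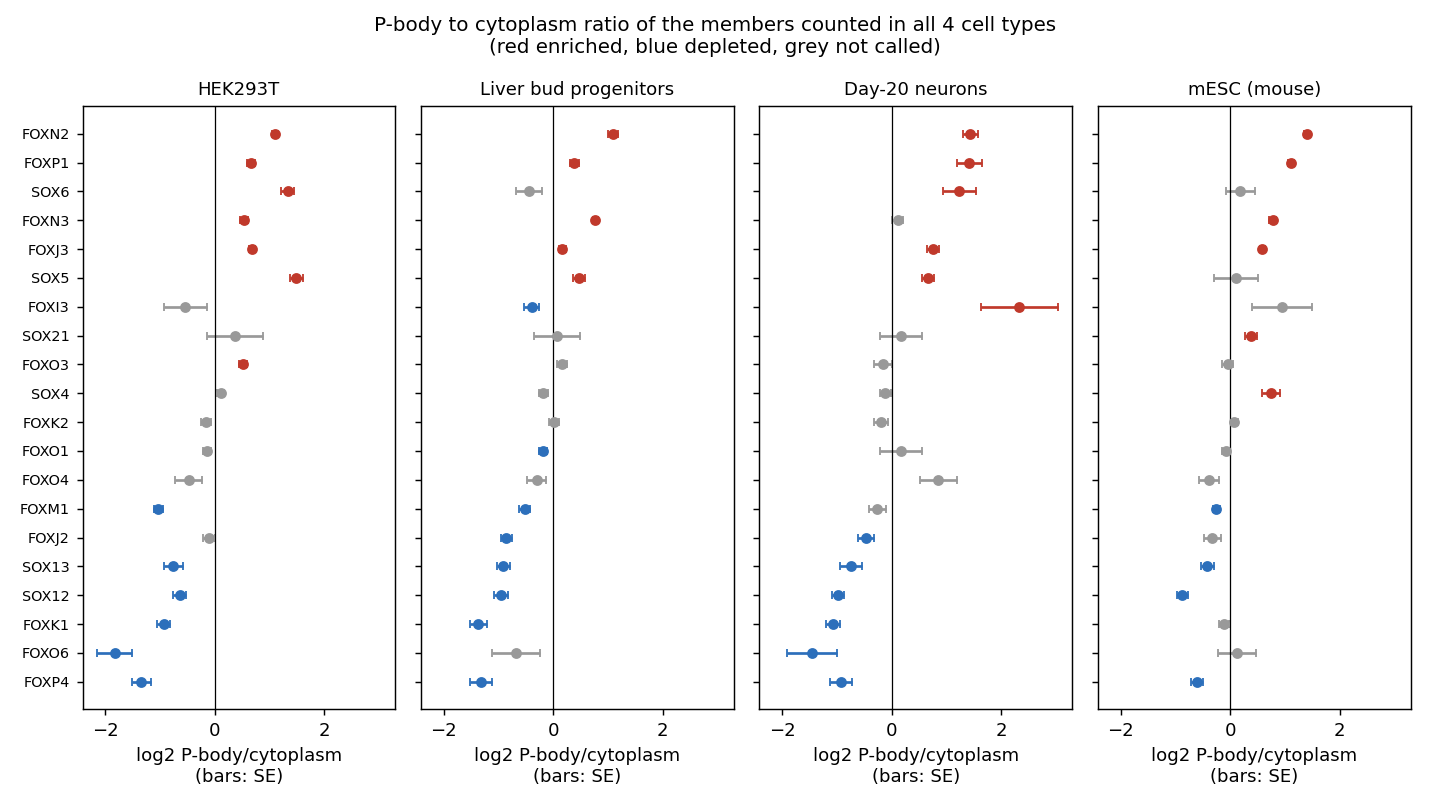
Log2 P-body to cytoplasm ratio (x axis) with its SE for the 20 members counted in all 4 cell types, 1 panel per cell type, with red for enriched, blue for depleted and grey for not called. FOXN2 lies between 1.10 and 1.44 in every panel and FOXP4 between -1.34 and -0.60, while SOX6 and FOXI3 change side between panels.

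FOXN2 and FOXN3, the latter known as a checkpoint suppressor, were the FOXN members with substantial expression. FOXN2 had 469 and 482 CPM in P-bodies and 228 and 217 CPM in the cytoplasm of HEK293T, 106 and 108 CPM in P-bodies and 54.5 and 46 CPM in the cytoplasm of liver bud progenitors, 94.2 and 89.9 CPM in P-bodies and 33 and 34.8 CPM in the cytoplasm of neurons, and 319.8 and 315 CPM in P-bodies and 121 and 120.2 CPM in the cytoplasm of mESCs. Every P-body library stood above both cytoplasm libraries of its cell type. Its log2 ratios were 1.10 ± 0.057 (adjusted p = 6.34e-25), 1.10 ± 0.091 (adjusted p = 8.40e-17), 1.44 ± 0.14 (adjusted p = 4.70e-06) and 1.40 ± 0.050 (adjusted p = 1.84e-17) in the same order. FOXN3 had the highest cytoplasmic level per kilobase of the members in liver bud progenitors, with 759 and 752 CPM in P-bodies and 441 and 444 CPM in the cytoplasm, a log2 ratio of 0.77 ± 0.052 (adjusted p = 8.47e-21). It was also enriched in HEK293T at 0.53 ± 0.076 (adjusted p = 2.06e-08) and in mESCs at 0.78 ± 0.062 (adjusted p = 9.98e-11). In neurons it had 199 and 185 CPM in P-bodies and 172 and 185 CPM in the cytoplasm, with overlapping fractions, and the ratio was 0.11 ± 0.099 (adjusted p = 0.44). Foxn4, a regulator of retinal and spinal interneuron progenitors, was counted only in mESCs, at 9.24 and 8.65 CPM in P-bodies and 6.06 and 6.42 CPM in the cytoplasm, with a ratio of 0.52 ± 0.20 (adjusted p = 0.0415).

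A stretch of the coding sequence that reads as the same 10 residues in both genes is shown for FOXN2 and FOXN3, since the subfamilies below differ in ratio and also in base composition. Capitals mark G or C at the last base of a codon, where the base can often change without changing the residue.
FOXN2: gaactCacaaaCttGaaCtgGcttcatgaa
FOXN3: gaGctGacCaaCctGaaCtgGctGcaCgaG
These windows lie within single coding exons in hg38 at chr2:48346377-48346406 on the plus strand for FOXN2 and chr14:89412273-89412302 on the minus strand for FOXN3. FOXN2 has G or C at 5 and FOXN3 at 10 of the 10 last codon bases. Over the whole coding sequence the last codon bases are 32.5% G or C in FOXN2 and 66.3% in FOXN3, and the longest transcripts are 34.4% and 45.3% G or C.

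FOXJ3, a forkhead activator known from muscle and testis, was among the 5 members of highest level per kilobase in every cell type. It had 429.6 and 424 CPM in P-bodies and 264 and 268 CPM in the cytoplasm of HEK293T (log2 ratio 0.68 ± 0.056, adjusted p = 2.32e-16), 187 and 221 CPM in P-bodies and 119.8 and 122 CPM in the cytoplasm of neurons (0.75 ± 0.11, adjusted p = 1.57e-04) and 312 and 304 CPM in P-bodies and 202 and 208 CPM in the cytoplasm of mESCs (0.59 ± 0.047, adjusted p = 1.12e-10). In liver bud progenitors the P-body libraries had 236 and 237 CPM and the cytoplasm libraries 221 and 201 CPM, a ratio of 0.17 ± 0.066 (adjusted p = 0.0359) that fell to 0.06 and lost its call without cytoplasm replicate 2, and also without either P-body replicate. It was -0.02 under library-size scaling, and the call was lost too by DESeq2 and RLE size factors (0.15 each), in a fit over all human libraries (0.15), without ribosomal RNA genes (0.15) and with the low-count filter of edgeR (0.079). FOXJ2, its closest relative, was never enriched. FOXJ2 had 42.4 and 42.1 CPM in P-bodies and 78.2 and 75.1 CPM in the cytoplasm of liver bud progenitors, with no overlap, and a ratio of -0.86 ± 0.098 (adjusted p = 1.47e-11). In neurons its ratio was -0.47 ± 0.14 (adjusted p = 0.0273), a call lost without either cytoplasm replicate, and it was -0.11 ± 0.11 (adjusted p = 0.48) in HEK293T and -0.33 ± 0.16 (adjusted p = 0.0914) in mESCs. Other settings called FOXJ2 depleted in mESCs, namely the low-count filter (-0.41), library-size scaling (-0.73) and leaving out cytoplasm replicate 2 (-0.47). The ratios of 2 genes were set side by side here and below without a test of the difference between genes.

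**Figure D2:**
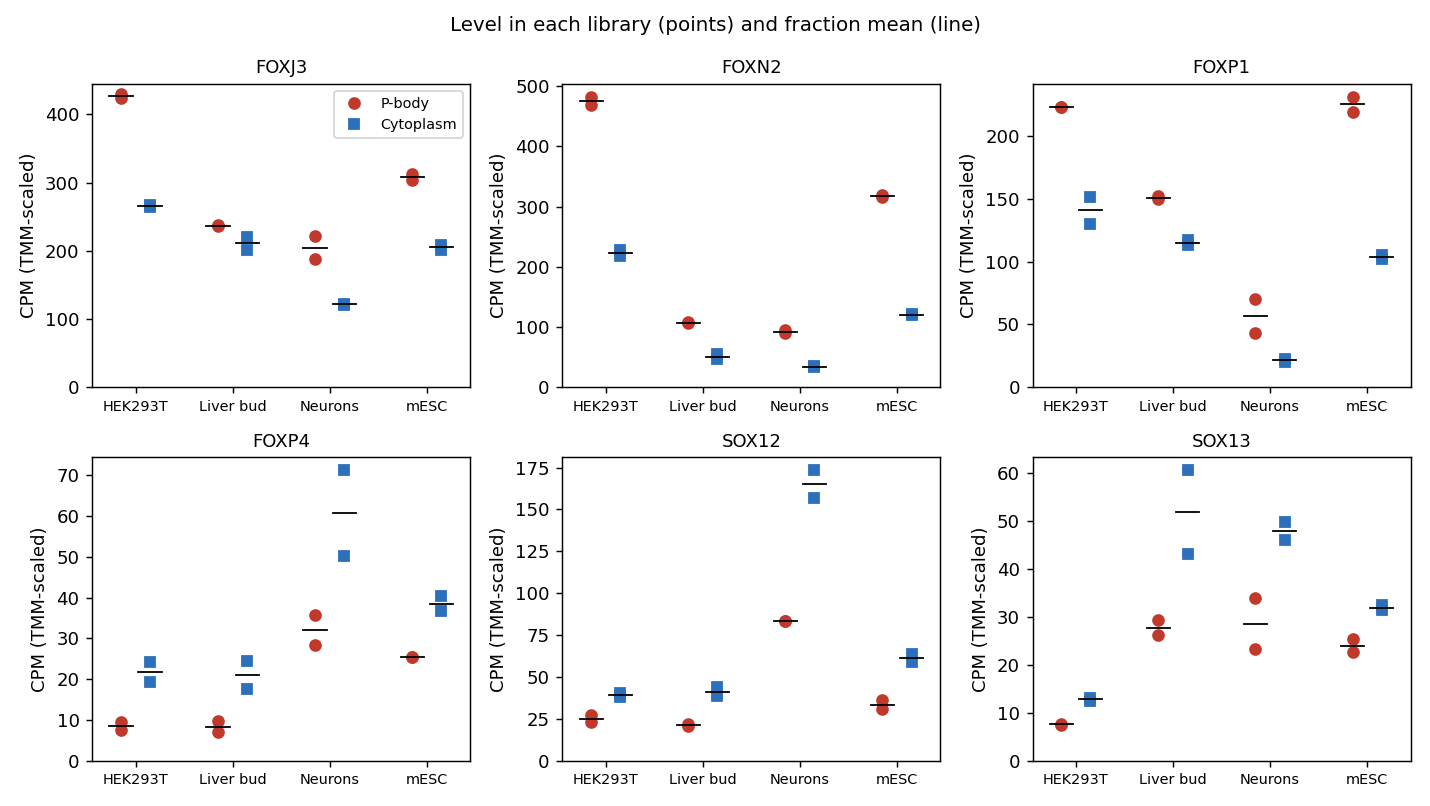
TMM-scaled CPM (y axis, from 0) in each library of the 3 members enriched and the 3 depleted in all 4 cell types, with red circles for P-body libraries, blue squares for cytoplasm libraries and a line at each mean of 2. The P-body points lie above the cytoplasm points for FOXJ3, FOXN2 and FOXP1 in every cell type and below them for FOXP4, SOX12 and SOX13.

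The FOXP proteins, repressors of neural, lung and lymphoid development that form dimers with each other, split by paralogue. FOXP1 mRNA was enriched in all 4 cell types. It had 43 and 70.5 CPM in P-bodies and 19.8 and 22.6 CPM in the cytoplasm of neurons, where the P-body libraries differed widely but both exceeded the cytoplasm, and 219 and 231 CPM in P-bodies and 106 and 102 CPM in the cytoplasm of mESCs. In HEK293T it had 223 and 223 CPM in P-bodies and 130.4 and 152 CPM in the cytoplasm, and in liver bud progenitors 149.6 and 152 CPM in P-bodies and 113 and 117 CPM in the cytoplasm. The log2 ratios were 0.66 ± 0.066 (adjusted p = 3.45e-13), 0.39 ± 0.075 (adjusted p = 1.00e-05), 1.42 ± 0.23 (adjusted p = 3.50e-04) and 1.12 ± 0.055 (adjusted p = 1.16e-14) in HEK293T, liver bud progenitors, neurons and mESCs, the liver bud value being 0.37 and not called in a fit over all human libraries. FOXP4 lay on the other side throughout. It had 9.60 and 7.60 CPM in P-bodies and 19.2 and 24.2 CPM in the cytoplasm of HEK293T, 6.95 and 9.84 CPM in P-bodies and 17.6 and 24.4 CPM in the cytoplasm of liver bud progenitors, 35.7 and 28.3 CPM in P-bodies and 71.1 and 50.1 CPM in the cytoplasm of neurons and 25.4 and 25.5 CPM in P-bodies and 40.3 and 36.8 CPM in the cytoplasm of mESCs, with no overlap in any of them. In the same order the ratios of FOXP4 were -1.34 ± 0.17 (adjusted p = 4.68e-10), -1.32 ± 0.20 (adjusted p = 6.99e-08), -0.92 ± 0.20 (adjusted p = 0.00305) and -0.60 ± 0.11 (adjusted p = 7.11e-05), the neuron value being -0.66 and not called without cytoplasm replicate 1.

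FOXP2, the paralogue tied to speech and corticostriatal circuits, was enriched in HEK293T, with 184 and 168 CPM in P-bodies and 90.6 and 93.1 CPM in the cytoplasm and a ratio of 0.94 ± 0.071 (adjusted p = 6.06e-18). In neurons it had 23.6 and 20.7 CPM in P-bodies and 12.7 and 15.3 CPM in the cytoplasm, without overlap, but the ratio of 0.66 ± 0.24 (adjusted p = 0.0619) missed the threshold. In liver bud progenitors the ratio was 0.031 ± 0.19 (adjusted p = 0.93), and FOXP3, counted only in neurons at a mean of 1.22 CPM, was not called (-0.086 ± 0.99). Over the coding sequence last-codon-base GC was 52.7% in FOXP1, 44.3% in FOXP2 and 79.4% in FOXP4, and the longest transcripts were 43.1%, 36.7% and 62.9% G or C.

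The FOXK proteins, which repress autophagy genes and act in glucose metabolism, also differed. FOXK1 was depleted in the 3 human cell types. It had 11.4 and 12.8 CPM in P-bodies and 33.1 and 29.7 CPM in the cytoplasm of liver bud progenitors, 58 and 55 CPM in P-bodies and 125 and 112 CPM in the cytoplasm of neurons and 28.2 and 23.3 CPM in P-bodies and 49.3 and 48.9 CPM in the cytoplasm of HEK293T, with ratios of -1.37 ± 0.16 (adjusted p = 3.80e-11), -1.07 ± 0.12 (adjusted p = 2.36e-05) and -0.93 ± 0.11 (adjusted p = 1.92e-10). In mESCs the fractions were close, at 38.8 and 39.4 CPM in P-bodies and 43.5 and 40.8 CPM in the cytoplasm, and the ratio was -0.11 ± 0.096 (adjusted p = 0.39). Under library-size scaling this mESC ratio was -0.51 and called depleted. FOXK2 was not called by the main test in any cell type, at -0.16 ± 0.084 (HEK293T), 0.011 ± 0.095 (liver bud), -0.20 ± 0.13 (neurons) and 0.075 ± 0.065 (mESCs). Under library-size scaling it was called depleted in HEK293T (-0.29) and mESCs (-0.33). It was also called depleted in neurons in the fit over all human libraries (-0.31).

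FOXO factors act downstream of insulin and PI3K signalling, and AKT phosphorylation keeps them out of the nucleus. Their mRNAs showed no common side. FOXO3 was enriched in HEK293T, with 133 and 136 CPM in P-bodies and 101 and 87.4 CPM in the cytoplasm and a ratio of 0.51 ± 0.074 (adjusted p = 2.10e-08), and was not called in liver bud progenitors (0.17 ± 0.090), neurons (-0.15 ± 0.16) or mESCs (-0.046 ± 0.096). FOXO1 was depleted by a small margin in liver bud progenitors, at 162 and 166 CPM in P-bodies and 191 and 183 CPM in the cytoplasm and -0.18 ± 0.069 (adjusted p = 0.028), a call lost without cytoplasm replicate 1 or without either P-body replicate. It lay at -0.14 ± 0.080, 0.18 ± 0.39 and -0.070 ± 0.075 in HEK293T, neurons and mESCs. FOXO6, a neuronal member that is not shuttled like the others, was the most depleted member of HEK293T by ratio, although its level was low at 1.44 and 1.28 CPM in P-bodies and 4.82 and 4.85 CPM in the cytoplasm (-1.83 ± 0.33, adjusted p = 2.40e-06). In neurons FOXO6 had 2.54 and 3.26 CPM in P-bodies and 9.25 and 6.70 CPM in the cytoplasm and a ratio of -1.45 ± 0.45 (adjusted p = 0.0286), a call lost without either cytoplasm replicate, and it was not called in liver bud progenitors (-0.67 ± 0.44) or mESCs (0.13 ± 0.34). FOXO4 was not called by the main test within any cell type, at -0.47 ± 0.25, -0.30 ± 0.17, 0.85 ± 0.33 and -0.38 ± 0.19 in HEK293T, liver bud cells, neurons and mESCs. Library-size scaling made all 4 of these calls, at -0.60, -0.49, 1.01 and -0.79. FOXO4 was also called depleted in HEK293T without cytoplasm replicate 2 (-0.70) or P-body replicate 1 (-0.81) and in mESCs with the low-count filter (-0.47), and enriched in neurons with that filter (0.96), in the fit over all human libraries (0.74) and without P-body replicate 2 (0.98).

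FOXM1, the forkhead activator of G2 and mitotic genes, was depleted in HEK293T, where it had 62.8 and 56 CPM in P-bodies and 118 and 125 CPM in the cytoplasm (-1.03 ± 0.080, adjusted p = 1.74e-17). It was depleted by less in liver bud progenitors (-0.52 ± 0.098, adjusted p = 9.77e-06) and in mESCs (-0.25 ± 0.063, adjusted p = 0.00207), the mESC call being lost without cytoplasm replicate 1. In neurons it had 46.3 and 58.2 CPM in P-bodies and 62.6 and 62.7 CPM in the cytoplasm, without overlap, but the ratio of -0.26 ± 0.15 (adjusted p = 0.23) was not called. The neuron ratio was -0.37 and called in the fit over all human libraries, and -0.44 without P-body replicate 2. The cycling-cell markers summed higher in P-bodies than in cytoplasm in all 4 cell types, at 4109.5 to 4224 against 2671 to 2672 CPM in HEK293T, where FOXM1 lay on the other side from them.

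Of the lineage-restricted forkhead genes, most were low. FOXC1, a regulator of mesoderm and neural crest, overlapped between fractions at 129 and 122 CPM in P-bodies and 139.9 and 123 CPM in the cytoplasm of HEK293T (-0.068 ± 0.071, adjusted p = 0.52). FOXB1, a diencephalic factor, was enriched in HEK293T from 2.89 and 3.15 CPM in cytoplasm to 6.31 and 6.04 CPM in P-bodies (1.03 ± 0.26, adjusted p = 5.29e-04). FOXD1 was depleted there at 0.891 and 0.464 CPM in P-bodies and 2.01 and 1.79 CPM in the cytoplasm (-1.50 ± 0.51, adjusted p = 0.0137), having passed 1 CPM through the cytoplasm alone. The FOXD1 call was lost by DESeq2. In liver bud progenitors FOXQ1 was depleted at 3.70 and 2.28 CPM in P-bodies and 5.12 and 7.21 CPM in the cytoplasm (-1.06 ± 0.33, adjusted p = 0.0078), while FOXA3, a hepatic pioneer factor, had 6.39 and 8.80 CPM in P-bodies and 6.15 and 7.59 CPM in the cytoplasm (0.14 ± 0.26, adjusted p = 0.73). The FOXQ1 call was lost by DESeq2 and in the fit over all human libraries. FOXH1, the Nodal and SMAD partner, was depleted in mESCs at -0.45 ± 0.18 (adjusted p = 0.049) and not called in liver bud progenitors at -0.35 ± 0.22. Its mESC call was lost by DESeq2, without ribosomal RNA genes, without cytoplasm replicate 1 and without either P-body replicate. Foxr2, counted only in mESCs, had 17.7 and 15.4 CPM in P-bodies and 6.80 and 5.49 CPM in the cytoplasm, and its ratio of 1.43 ± 0.19 (adjusted p = 6.88e-07) was the highest of the mESC members. FOXI3, an ectodermal placode factor, was called in both directions, depleted in liver bud progenitors at -0.39 ± 0.14 (adjusted p = 0.0174) and enriched in neurons at 2.34 ± 0.70 (adjusted p = 0.0241). The neuron value rests on 2.98 and 4.94 CPM in P-bodies and 0.850 and 0.70 CPM in the cytoplasm, so that FOXI3 passed 1 CPM there through P-bodies alone, and it lost its call without either cytoplasm replicate. With 1 CPM required in each fraction, 5 members were enriched in neurons. The liver bud call was lost without cytoplasm replicate 2 (-0.33), without P-body replicate 2 (-0.25), by DESeq2 (-0.41) and in the fit over all human libraries (-0.41). In HEK293T and mESCs FOXI3 was not called, at -0.54 ± 0.39 and 0.95 ± 0.55, and nor was FOXB1 in neurons at 1.27 ± 0.76. FOXI2, FOXE1, FOXF1, FOXF2, FOXB2, FOXD4, FOXJ1 and FOXD3 were counted at means of 1.04 to 8.01 CPM and were not called. FOXD4 has near-identical copies elsewhere in the genome, and its counts may be shared among them.

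The SOXC factors SOX4, SOX11 and SOX12 act in neuronal and mesenchymal differentiation, and SOX4 and SOX11 are activators of neuronal genes. SOX12 was depleted in every cell type. It had 83.3 and 83.4 CPM in P-bodies and 173 and 157 CPM in the cytoplasm of neurons, 27.1 and 23.4 CPM in P-bodies and 37.9 and 40.6 CPM in the cytoplasm of HEK293T, 21.9 and 21 CPM in P-bodies and 38.5 and 44 CPM in the cytoplasm of liver bud progenitors and 30.7 and 36.5 CPM in P-bodies and 63.7 and 59.1 CPM in the cytoplasm of mESCs, without overlap. Its ratios were -0.64 ± 0.12 (adjusted p = 6.77e-06), -0.95 ± 0.13 (adjusted p = 6.76e-09), -0.99 ± 0.11 (adjusted p = 1.76e-05) and -0.87 ± 0.097 (adjusted p = 4.74e-08) in HEK293T, liver bud progenitors, neurons and mESCs. SOX4 had the highest level per kilobase of the members in neurons, with overlapping fractions at 275 and 316 CPM in P-bodies and 308 and 329.7 CPM in the cytoplasm (-0.11 ± 0.094, adjusted p = 0.41), and it was not called in HEK293T (0.11 ± 0.063) or liver bud progenitors (-0.18 ± 0.084). Other settings did call it. SOX4 was enriched in HEK293T by DESeq2 and RLE size factors (0.20 each), in the fit over all human libraries (0.24), with the low-count filter (0.16) and without cytoplasm replicate 1 (0.21). It was depleted in liver bud progenitors with the low-count filter (-0.27) and library-size scaling (-0.37), and in neurons in the fit over all human libraries (-0.22). In mESCs Sox4 was low but enriched, from 10.3 and 12 CPM in cytoplasm to 20.4 and 17.2 CPM in P-bodies (0.75 ± 0.17, adjusted p = 5.91e-04). SOX11 was enriched in mESCs at 0.69 ± 0.15 (adjusted p = 6.20e-04). In liver bud progenitors it had 70.4 and 79.5 CPM in P-bodies and 60.9 and 60.6 CPM in the cytoplasm and a ratio of 0.30 ± 0.093 (adjusted p = 0.00579), lost without cytoplasm replicate 2 or without P-body replicate 2. In neurons its fractions overlapped at 261 and 294 CPM in P-bodies and 294 and 303 CPM in the cytoplasm (-0.10 ± 0.092, adjusted p = 0.43).

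The SOXC window below encodes 10 residues shared by all 3 proteins, and here the last codon bases did not set SOX12 apart.
SOX4: agtggGcaCatCaaGcgaccCatGaaCgcC
SOX11: tcGggCcaCatCaaGcgGccGatGaaCgcG
SOX12: agCggCcaCatCaaGagGccGatGaaCgca
The windows lie in hg38 at chr6:21594700-21594729 on the plus strand for SOX4, chr2:5692857-5692886 on the plus strand for SOX11 and chr20:326033-326062 on the plus strand for SOX12, with 8, 10 and 9 of 10 last codon bases in capitals. Last-codon-base GC over the coding sequence was 90.7%, 93.0% and 88.6%. The longest transcripts, which include long untranslated regions, were 52.5%, 48.6% and 62.2% G or C.

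The SOXD factors SOX5, SOX6 and SOX13 lack a transactivation domain and act in cartilage, oligodendrocyte and neuronal development. SOX5 was enriched in the 3 human cell types, with 57.3 and 57.5 CPM in P-bodies and 19 and 21.8 CPM in the cytoplasm of HEK293T (1.49 ± 0.11, adjusted p = 7.61e-18), 54.1 and 56.2 CPM in P-bodies and 35.6 and 43.5 CPM in the cytoplasm of liver bud progenitors (0.47 ± 0.11, adjusted p = 2.15e-04) and 138 and 137 CPM in P-bodies and 88.1 and 86.5 CPM in the cytoplasm of neurons (0.66 ± 0.11, adjusted p = 4.83e-04). The HEK293T value was the highest ratio of any member there. SOX6 was enriched in HEK293T at 51.1 and 55.5 CPM in P-bodies and 20.8 and 21.6 CPM in the cytoplasm (1.33 ± 0.11, adjusted p = 9.67e-16). In neurons SOX6 had 15.6 and 22.4 CPM in P-bodies and 8.40 and 7.70 CPM in the cytoplasm (1.24 ± 0.30, adjusted p = 0.0066), a ratio of 1.16 and not called without cytoplasm replicate 2, and in liver bud progenitors it had 8.07 and 7.14 CPM in P-bodies and 11.1 and 9.61 CPM in the cytoplasm and was not called (-0.44 ± 0.24). Sox5 and Sox6 were near the lower limit in mESCs, at means of 2.07 and 5.17 CPM, and were not called. SOX13 was depleted in all 4, with 29.4 and 26.2 CPM in P-bodies and 43.2 and 60.6 CPM in the cytoplasm of liver bud progenitors and 33.9 and 23.3 CPM in P-bodies and 49.8 and 46 CPM in the cytoplasm of neurons. Its ratios were -0.75 ± 0.18 (adjusted p = 3.89e-04), -0.91 ± 0.13 (adjusted p = 4.83e-09), -0.75 ± 0.20 (adjusted p = 0.0125) and -0.41 ± 0.12 (adjusted p = 0.00596) in HEK293T, liver bud progenitors, neurons and mESCs. The neuron call was lost without cytoplasm replicate 1 (-0.70) and the mESC call without P-body replicate 1 (-0.33).

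A shared SOXD window, 10 residues long, reads as follows.
SOX5: caGcaacaacaCaaaatCaatttGctCcaG
SOX6: caacaGcaGcaCaaaattaatctCctGcaG
SOX13: caGcaGcaGcataaGatCaaCctCcttcaG
Its hg38 positions are chr12:23734696-23734725 on the minus strand for SOX5, chr11:16183898-16183927 on the minus strand for SOX6 and chr1:204117149-204117178 on the plus strand for SOX13, with 6, 6 and 8 last codon bases in capitals. Over the coding sequence last-codon-base GC was 49.7% in SOX5, 49.3% in SOX6 and 77.8% in SOX13, and the longest transcripts were 39.2%, 41.8% and 60.6% G or C.

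Among the remaining SOX genes, SOX9 (SOXE), which acts in cartilage and in glial and hepatic duct progenitors, was enriched in HEK293T at 18.3 and 17.6 CPM in P-bodies and 9.40 and 9.70 CPM in the cytoplasm (0.91 ± 0.17, adjusted p = 4.01e-06). In neurons it had 66.9 and 71.1 CPM in P-bodies and 95.4 and 78.3 CPM in the cytoplasm, with the cytoplasm libraries higher, and a ratio of -0.33 ± 0.14 (adjusted p = 0.0889), while in liver bud progenitors the ratio was -0.36 ± 0.27. SOX10, a neural crest factor, was depleted in liver bud progenitors at 2.80 and 3.73 CPM in P-bodies and 6.44 and 5.06 CPM in the cytoplasm (-0.80 ± 0.33, adjusted p = 0.0464). The SOX10 call was lost by DESeq2 and in the fit over all human libraries. SOX3, a SOXB1 factor of neural progenitors, was depleted in neurons at 15.7 and 7.42 CPM in P-bodies and 28.9 and 21.7 CPM in the cytoplasm (-1.14 ± 0.33, adjusted p = 0.0191) and stood at -0.17 ± 0.64 in liver bud progenitors. Its neuron call was lost without cytoplasm replicate 1. Sox21, a SOXB2 repressor, was enriched in mESCs at 34.7 and 34.7 CPM in P-bodies and 29 and 24.3 CPM in the cytoplasm (0.38 ± 0.12, adjusted p = 0.00902), a call lost without cytoplasm replicate 2 and a ratio of -0.02 under library-size scaling. SOX7, SOX8, SOX15 and SOX21 in the human cells, with Sox15 in mESCs, were counted but not called. SOX9, SOX21, FOXN3 and FOXP4 have antisense genes with rows of their own in the human table, and the sources used here do not say whether counting used the strand.

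The ratios of single members were also set side by side across cell types. Between HEK293T and mESCs, 16 of the 20 members counted in both had the same sign, 8 were called the same way and 0 oppositely, and Spearman's rho over these members was 0.60. The other pairs gave rho of 0.74 (HEK293T and liver bud progenitors, 23 members), 0.64 (HEK293T and neurons, 26), 0.58 (liver bud progenitors and neurons, 25), 0.73 (liver bud progenitors and mESCs, 23) and 0.66 (neurons and mESCs, 21), as descriptions without a test. The same shares and rho were not computed over all genes, so these values do not show agreement particular to the members. Each cell type has its own libraries, but the members share transcript features and, in the human cells, one annotation. The opposite calls of FOXI3 in liver bud progenitors and neurons were each lost when some single libraries were left out.

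Enriched members had, in median, transcripts poorer in G and C than depleted members. The median GC content of the longest transcript was 43.1% among enriched and 62.2% among depleted members in HEK293T, 42.7% and 59.1% in liver bud, 42.0% and 62.2% in neurons, and 46.2% and 59.9% in mESCs. Spearman's rho between GC content and log2 ratio over the counted members was -0.66, -0.67, -0.54 and -0.47 in that order. Over all genes of at least 1 CPM with a transcript it was -0.54, -0.59, -0.50 and -0.58, so the members followed a relation seen across the table. Last-codon-base GC gave weaker values among members (-0.28, -0.38, -0.37 and -0.18) than among all genes (-0.51, -0.57, -0.49 and -0.52). Transcript length gave 0.23, 0.23, 0.08 and 0.10. The difference between the 2 replicates of a fraction also moved with GC content among the members in some groups, with rho of 0.50 in neuron cytoplasm and -0.42 in liver bud cytoplasm, and the part of GC-dependent library effects in the ratios was not tested.

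**Figure D3:**
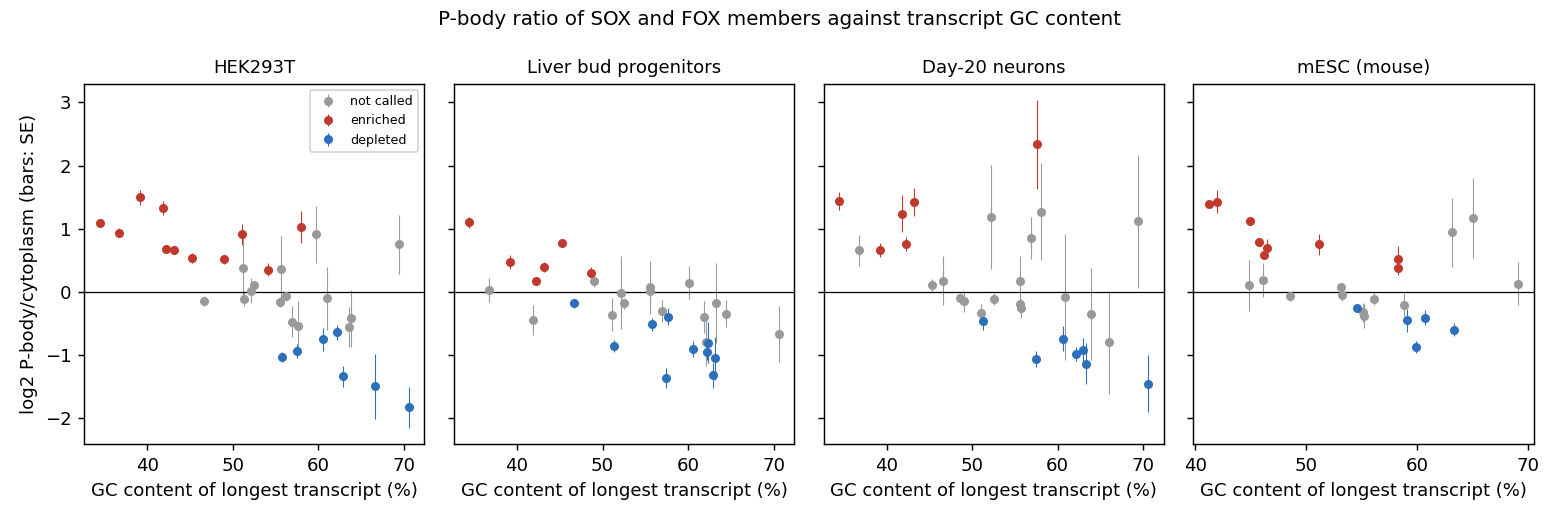
Log2 P-body to cytoplasm ratio (y axis, bars are SE) of each counted member against the GC content of its longest annotated transcript (x axis, percent), 1 panel per cell type, with red for enriched, blue for depleted and grey for not called. Enriched members have median GC contents of 42.0% to 46.2% and depleted members of 59.1% to 62.2%.

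Liver bud progenitors and neurons came from the same line and library method, and their ratios were compared directly over 8 libraries, as the neuron minus the liver bud log2 ratio. Of 25 members counted in both, 5 had a higher ratio in neurons and 2 in liver bud progenitors, where 12.8% and 14.1% of 13107 genes were called in those directions. The count for neurons was 2 without neuron cytoplasm replicate 1 and 3 without neuron cytoplasm replicate 2. The count for liver bud progenitors was 1 without neuron cytoplasm replicate 2, without P-body replicate 2 of liver bud or without either liver bud cytoplasm replicate, and 4 without neuron P-body replicate 1. Library-size scaling moved the median difference of all genes by 0.36, and 12 and 0 members were then called.

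SOX6 had 7.83 and 7.05 CPM in liver bud P-bodies and 10.8 and 9.30 CPM in liver bud cytoplasm, against 16.1 and 22.9 CPM and 8.67 and 7.84 CPM in those of neurons. The P-body levels were further apart than the cytoplasm levels, with a difference in log2 ratio of 1.67 ± 0.38 (adjusted p = 0.00659). FOXP1 was enriched in both but more so in neurons, by 1.02 ± 0.23 (adjusted p = 0.00618), a difference of 0.87 and not called without neuron cytoplasm replicate 1. FOXJ3 differed by 0.58 ± 0.13 (adjusted p = 0.00489), a call lost without either neuron cytoplasm replicate. FOXI3 differed by 2.72 ± 0.45 (adjusted p = 5.84e-04) and was called with any 1 library left out. However, it had under 1 CPM in each neuron cytoplasm library, and its ratio within neurons lost its call without either of them. FOXO4 had 16 and 14.7 CPM and 20.2 and 17.4 CPM in P-bodies and cytoplasm of liver bud progenitors against 13.7 and 11.3 CPM and 6.04 and 7.74 CPM in neurons, a difference of 1.15 ± 0.35 (adjusted p = 0.0323) that lost its call without any 1 of the liver bud libraries or of the neuron cytoplasm libraries, and by DESeq2. FOXN3 differed the other way, by -0.67 ± 0.10 (adjusted p = 2.85e-04), and kept its call with any 1 library left out but fell to -0.32 and lost it under library-size scaling. SOX11 differed by -0.42 ± 0.13 (adjusted p = 0.0379), a call lost without either liver bud cytoplasm replicate, liver bud P-body replicate 2 or neuron cytoplasm replicate 2. It was lost as well by DESeq2 and RLE size factors (-0.38 each), with the low-count filter (-0.27) and under library-size scaling, where the difference was -0.058. The other 18 members, among them FOXN2 (0.34 ± 0.17), SOX12 (-0.047 ± 0.16), SOX13 (0.15 ± 0.27), FOXP4 (0.39 ± 0.33) and FOXK1 (0.29 ± 0.19), were not called.

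**Figure D4:**
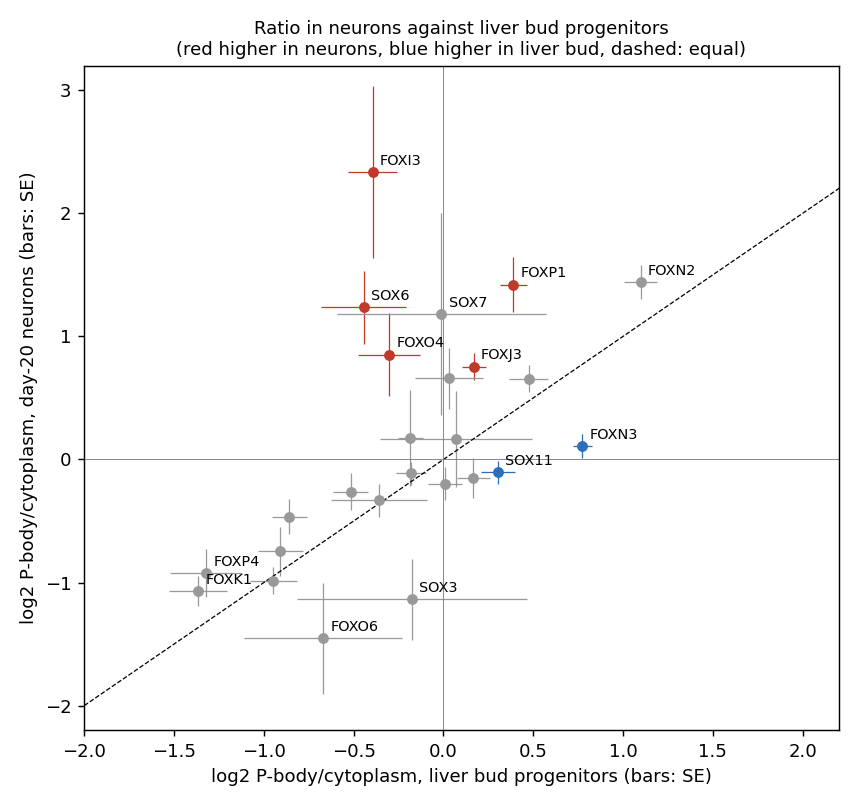
Log2 P-body to cytoplasm ratio in neurons (y axis) against liver bud progenitors (x axis) for members counted in both, with SE bars and a dashed line of equal ratios, red for a higher and blue for a lower ratio in neurons. SOX6 and FOXI3 lie left of 0 on the x axis and above 1 on the y axis, and FOXN3 lies below the line.

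The cytoplasmic level of the members differed widely between the same cell types. The cytoplasm libraries alone were compared for members averaging at least 1 CPM over all 4 of them, so a member could pass through a single cell type. Of 33 such members, 13 were higher in neurons and 14 in liver bud progenitors, against 36.9% and 34.5% of 14903 genes. In bulk fractions, fewer cells of a type and less RNA per cell cannot be told apart. Higher in neurons were the SOXC genes, with SOX11 at 317 and 327 CPM against 56.8 and 56.6 CPM (2.51 ± 0.091, adjusted p = 3.45e-38), SOX12 at 187 and 169 CPM against 35.9 and 41.2 CPM (2.21 ± 0.10, adjusted p = 3.82e-31) and SOX4 (1.98 ± 0.086, adjusted p = 2.72e-33). SOX9 at 103 and 84.5 CPM against 9.01 and 5.91 CPM (3.67 ± 0.16, adjusted p = 2.61e-33) and SOX3 at 31.2 and 23.4 CPM against 1.09 and 1.30 CPM (4.49 ± 0.28, adjusted p = 4.25e-24) were also higher in neurons. These are genes of neural progenitors and young neurons, and all 7 neural progenitor markers reached 1 CPM in neuron cytoplasm, at 753 to 827 CPM in sum.

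Higher in liver bud progenitors were FOXO1, at 178 and 171 CPM against 6.32 and 9.28 CPM (-4.49 ± 0.13, adjusted p = 1.11e-43), FOXP1 (-2.23 ± 0.12, adjusted p = 1.13e-27) and FOXN3 (-1.10 ± 0.079, adjusted p = 3.78e-21). FOXA3, FOXQ1 and SOX10 had 0 counts in both neuron cytoplasm libraries, where 3 counts would be 0.261 and 0.290 CPM, against 5.73 and 7.10 CPM, 4.78 and 6.74 CPM and 6.0 and 4.73 CPM in liver bud cytoplasm. These 3 members were counted in this comparison through liver bud cytoplasm alone, so their direction follows from the limit on level. SOX6, SOX7, SOX13, FOXJ2, FOXM1 and FOXP2 were not called, with log2 differences of -0.34 to 0.18. For SOX6 this stands beside the difference in ratio above, and the 2 comparisons share the cytoplasm libraries. Library-size scaling moved the median of all genes by -0.38 in this comparison.

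**Figure D5:**
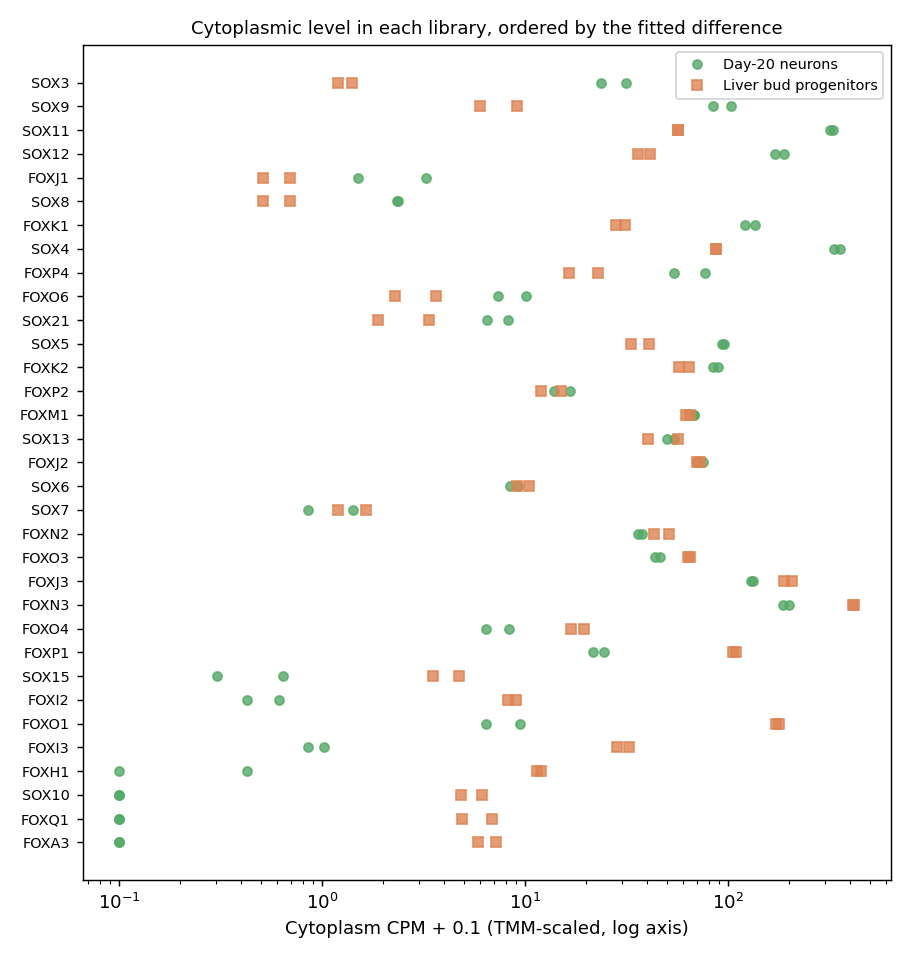
TMM-scaled cytoplasm CPM plus 0.1 (x axis, log scale) of the 33 members in each neuron library (green circles) and liver bud library (orange squares), ordered by fitted difference. SOX3, SOX9 and SOX11 separate towards neurons at the top, and the members at the bottom left of neurons, FOXA3, FOXQ1 and SOX10, have 0 counts in both neuron libraries.

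Levels of different genes were compared per kilobase of the longest transcript, in the cytoplasm. In HEK293T FOXJ3 came first at 49.6 CPM per kilobase, then FOXN2 at 40.9, SOX4 at 39.4, FOXM1 at 34.1 and FOXC1 at 33. In liver bud progenitors the order was FOXN3 at 55.1, FOXJ3 at 39.4 and FOXO1 at 32.3. In neurons SOX4 led at 65.5, followed by SOX12 at 35.3 and SOX11 at 33.2, so the leading members there were all SOXC. In mESCs Foxj3 at 42.8, Foxm1 at 31.2 and Foxn2 at 23.7 led. FOXJ3 was the only member among the leading 5 in all 4 cell types.

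Other genes of these pathways were described for comparison. Of 7 other HMG-box factors, 3 were enriched and 2 depleted in HEK293T (32.0% and 38.0% of all genes), 2 and 3 in liver bud progenitors (32.3% and 24.6%), 2 and 2 in neurons (19.9% and 21.1%) and 3 and 2 in mESCs (33.8% and 20.2%), with median log2 ratios of -0.27, -0.37, -0.19 and 0.23. BBX and HBP1, an HMG-box repressor of cell cycle genes, were enriched in all 4, HBP1 in that order at 0.35 ± 0.091, 0.64 ± 0.083, 1.55 ± 0.15 and 0.63 ± 0.064. CIC, the Capicua repressor, was depleted in all 4, in the same order at -1.35 ± 0.14, -1.26 ± 0.17, -1.12 ± 0.12 and -0.95 ± 0.058. The TCF and LEF factors, which bind β-catenin, were mixed, TCF7L2 being enriched in HEK293T (0.68 ± 0.081) and mESCs (0.56 ± 0.081) and depleted in liver bud progenitors (-0.55 ± 0.077).

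Among 23 genes of the insulin, PI3K and FOXO pathway, 12 were enriched and 4 depleted in HEK293T, 13 and 6 in liver bud progenitors, 11 and 6 in neurons, and 16 and 3 in mESCs, to be read beside 32.0% and 38.0%, 32.3% and 24.6%, 19.9% and 21.1%, and 33.8% and 20.2% of all genes. The median log2 ratios were 0.45, 0.57, 0.91 and 0.74, beside the medians of all genes given earlier. Targets of FOXO factors were among those enriched in all 4, with CCNG2, a cyclin of growth arrest, in that order at 1.19 ± 0.096, 0.81 ± 0.10, 1.43 ± 0.14 and 1.36 ± 0.14. CDKN1B, BCL2L11, SESN3 and TXNIP were likewise enriched in all 4. Not all targets were. SESN1 was not called in HEK293T (0.064 ± 0.14) and BCL6 not in liver bud progenitors (0.22 ± 0.15), and GADD45A was enriched in mESCs alone. Upstream kinases and receptors were split. RICTOR, PIK3CA, PIK3CB and PIK3R1 were enriched in all 4. IGF1R, a receptor that activates AKT, was depleted in all 4, in the same order at -1.20 ± 0.092, -1.14 ± 0.066, -1.04 ± 0.091 and -0.66 ± 0.072, as was MTOR. Of the FOXO genes themselves, FOXO1 lay between -0.18 and 0.18 over the 4 cell types.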

How the data were processed

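P-body and cytoplasm RNA of 4 cell types was sequenced by the authors as paired-end reads, 2 libraries per fraction, 16 in all. The deposited human (hg38) and mouse (mm10) tables hold whole-number read counts per gene symbol for each library. Per the study's methods, snapTotal-seq reads were quantified with salmon in the nf-core RNA-seq pipeline and Smart-seq reads aligned with HISAT2 and counted with featureCounts, and which of these made the polyA columns is not given in the sources used here. Every gene in the tables has a summed count of at least 10 in its table. The authors' own comparison files, which hold DESeq2 fold changes and p-values, were not used.

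Members, gene lists and tests were chosen with earlier results of these data known. Counts were fitted with edgeR 4.0.16 (TMM, quasi-likelihood F-test, two-sided, R 4.3.3) on each whole table, leaving out genes with 0 counts in all libraries compared, with Benjamini-Hochberg adjustment over all genes tested and a call at adjusted p under 0.05. This design replaced the DESeq2 test of the study, which was run as an alternative (DESeq2 1.42.0). Members of at least 1 CPM on average were counted. Those named were of at least 20 CPM, counted in all 4 cell types or called between neurons and liver bud progenitors; other members are named because every member is accounted for, except that a member and a sequence are not reported here. Fits were checked on simulated counts. Totals of 6368953 to 17972284 counts put 3 counts at 0.167 to 0.471 CPM, a floor for counting error only. Transcript lengths and transcript GC content came from the longest transcript of each gene in GENCODE annotation of hg38 and mm10. Last-codon-base GC and coding windows came from the transcript with the longest coding sequence, which can be another transcript. Alternatives were RLE size factors, library-size scaling, a filter on low counts, all human libraries in 1 fit, no ribosomal RNA genes, a replicate block, a minimum of 5 CPM and leaving out each library.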

Additional observations from a re-analysis of the deposited data

Results flagged for a closer look

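The following results were picked out because a member's P-body to cytoplasm ratio differed between cell types. By the edgeR interaction test, the neuron ratio exceeded the liver bud ratio by 2.72 (log2) for FOXI3, 1.67 for SOX6, 1.15 for FOXO4, 1.02 for FOXP1 and 0.58 for FOXJ3. The difference was -0.67 for FOXN3 and -0.42 for SOX11, whose ratios were higher in liver bud progenitors. FOXI3 had fewer than 1 CPM in each neuron cytoplasm library, and its neuron ratio therefore rests on few counts.

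For the members that follow, both P-body libraries lay above both cytoplasm libraries in one cell type and below both in another, and these differences were not tested. SOX6 was higher in HEK293T than in liver bud progenitors by 1.77 and SOX4 by 0.29. SOX9 was higher in HEK293T than in neurons by 1.24 and FOXO3 by 0.66. Liver bud progenitors lay below mESCs by a log2 difference of -0.93 for SOX4 and -1.34 for FOXI3, and neurons lay above mESCs by 1.24 for FOXO4. HEK293T and mESC libraries were randomly primed and the others were made from polyA RNA, so cell type and library method cannot be told apart where they are set beside liver bud progenitors or neurons.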

How the results depend on the processing

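Over 108 results, 714 values under other settings kept direction and call in 620 cases, lost a call in 30, gained one in 35, moved without a call in 26 and reversed in 3. The reversals, all under library-size scaling, were FOXJ3 in liver bud progenitors (-0.018), Foxk2 in mESCs (-0.33) and Sox21 in mESCs (-0.022). Leaving out 1 library gave 516 values, of which 444 kept their call, 35 lost it, 10 gained one and 27 moved. The cause of the changes was not tested.

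Library-size scaling gave 11 depleted members in HEK293T, 5 enriched and 12 depleted in mESCs, 12 ratios higher in the neurons with 0 higher in the liver bud cells, and median ratios of -0.11 (HEK293T), -0.49 (liver bud), 0.071 (neurons) and -0.28 (mESCs). The count of 0 is edgeR's with Benjamini-Hochberg adjustment; 1 member had an unadjusted p under 0.05, and DESeq2 with its own size factors called 1. DESeq2 gave 6 depleted in liver bud progenitors, 3 depleted in mESCs, 1 with a higher ratio in liver bud progenitors, and medians of 0.11 (HEK293T) and -0.037 (neurons). RLE size factors gave 1 with a higher ratio in liver bud progenitors and medians of 0.11 and -0.039 in the same order. The fit over all human libraries gave 6 depleted in liver bud progenitors, 11 depleted in neurons, and medians of 0.15 (HEK293T) and -0.21 (neurons). The low-count filter gave 1 with a higher ratio in liver bud progenitors and medians of -0.00089 (neurons) and 0.019 (mESCs). A minimum of 5 CPM gave a median of 0.015 in mESCs and 9 members higher in liver bud cytoplasm.

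Leaving out 1 library gave 6 to 9 depleted members in HEK293T, 7 to 8 in liver bud progenitors, 2 to 9 in neurons and 3 to 6 in mESCs, 11 to 13, 4 to 6, 4 to 9 and 7 to 8 enriched in the same order, 1 to 4 with a higher ratio in liver bud progenitors and 2 to 5 in neurons, and 11 to 13 and 13 to 14 higher in neuron and in liver bud cytoplasm. The medians ranged from 0.067 to 0.17 in HEK293T, -0.33 to -0.20 in liver bud progenitors, -0.12 to -0.086 in neurons and 0.025 to 0.27 in mESCs. A fraction left with 1 library was assumed to vary like the others.

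P-body and cytoplasm libraries share replicate numbers. The deviations of same-numbered libraries were nearly uncorrelated (Pearson's r across genes -0.028, -0.0037, 0.016 and 0.036 in HEK293T, liver bud progenitors, neurons and mESCs). With so few replicates this cannot settle whether same-numbered libraries came from the same culture. Per the study's methods, sorted P-bodies were stored beside aliquots of the matching fraction taken before sorting, and the labels do not say which libraries match. With the number as a block, 107 of 108 results were unchanged in call, the exception being SOX9 in neurons, whose ratio of -0.33 became called. Depleted members in neurons then numbered 8.

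Low counts limit the members under 5 CPM, and 2 libraries per fraction limit every ratio. Under DESeq2 the calls of FOXI3, FOXJ3, FOXO1 and SOX11 in liver bud progenitors, FOXJ2 and FOXO6 in neurons, and Sox13 and Sox21 in mESCs were lost, with the neuron to liver bud differences of FOXO4 and SOX11.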
